A study of Homo sapiens with 21 samples.

Results

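AMPA (aminomethylphosphonic acid), a breakdown product of the herbicide glyphosate, was added to C3A cells that also received the herbicide 2,4-D (2,4-dichlorophenoxyacetic acid), and these cells were set against cells given 2,4-D alone. The 2 groups hold 6 of the 21 libraries of the series. The 3 AMPA+2,4-D libraries came from cells given AMPA at 34 µM (3.7 µg/mL) together with 2,4-D at 2.5 µM (0.56 µg/mL), and the 3 2,4-D libraries came from cells given 2,4-D at the same 2.5 µM. Both groups thus carried 2,4-D, and in both the exposure lasted 48 h. The genes compared were those listed for both groups with an FPKM (fragments scaled to the length of the gene and the depth of the library) of at least 1 in at least 3 of the 6 libraries. They numbered 12045 of the 28808 genes listed in the series, and 10112 of them were protein-coding. C3A cells, labelled wild type, are a clone derived from the human hepatoma line HepG2, so 1 clone stands for the liver cell. Libraries of 4 other groups were also used: 3 of cells given glyphosate at 5.6 µM with 2,4-D at 2.5 µM, 3 of cells given AMPA at 34 µM alone, 3 of cells given glyphosate at 5.6 µM alone and 6 of unexposed cells. Those given glyphosate alone were not compared as a group. They entered the shared estimate of the spread and the measures taken over all exposed libraries. Nothing in the labels tells separate cultures from repeats of 1 culture, and the p-values therefore measure the spread between these libraries, which may be technical.

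In plants 2,4-D acts as a synthetic auxin, a growth hormone for which animals have no counterpart, and AMPA is formed from glyphosate by microbes in soil and water. Liver cells secrete much of the protein of blood plasma and fold it in the endoplasmic reticulum. When unfolded protein gathers there, the sensors IRE1, PERK and ATF6 turn on chaperone genes, a program called the unfolded protein response. The transcription factor NRF2 turns on genes for glutathione synthesis, thioredoxin and the reduction of reactive carbonyls when cells meet electrophiles or oxidants, and both programs are widely followed in liver cells given foreign compounds.

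The libraries held 18.2, 15.29 and 18.52 M reads recovered from the FPKM values in AMPA+2,4-D replicates 1, 2 and 3, and 17.98, 15.78 and 15.99 M in the 2,4-D replicates. The cells carried their label: all 14 hepatocyte and hepatoma markers passed the filter, with summed levels of 13100 to 13800 FPKM in AMPA+2,4-D libraries and 13100 to 14100 FPKM in 2,4-D libraries. Of 10 macrophage and leukocyte markers, 5 were listed in the series, and of these MARCO was at 0 in all 6 libraries. PTPRC, CD163, C1QA, C1QB and CD3E were not listed. Of 10 stellate cell and fibroblast markers, 6 were listed, and of these PDGFRA was at 0 in all 6 libraries. COL1A2, LUM, DCN and THY1 were not listed. The summed macrophage list, at 540 to 589 FPKM in AMPA+2,4-D libraries and 473 to 550 FPKM in 2,4-D libraries, was nearly all LYZ. The fibroblast list summed to 15.9 to 16.4 FPKM in AMPA+2,4-D libraries and 14.9 to 16.4 FPKM in 2,4-D libraries, nearly all of it ACTA2 (12.7 to 14.6 FPKM) and PDGFRB (1.71 to 2.78 FPKM). The endothelial list (KDR at 0, CLEC4G not listed) summed to 5.13 to 5.89 FPKM in AMPA+2,4-D libraries and 4.87 to 5.61 FPKM in 2,4-D libraries. Nearly all of that was ENG (3.08 to 4.3 FPKM) and LYVE1 (1.13 to 1.91 FPKM). The cholangiocyte list (CFTR not listed) summed to 539 to 575 FPKM and 553 to 603 FPKM in the same groups. Of its 8 markers 5 passed the filter: SPP1 (367 to 426 FPKM), EPCAM (88.6 to 95.1 FPKM), SOX9 (37.3 to 41.1 FPKM), KRT19 (20.6 to 27.5 FPKM) and SLC4A2 (19.6 to 23.7 FPKM). The part of such cells in the results was not tested.

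Replicates 1 and 3 of AMPA+2,4-D stood apart from the other exposed libraries, and replicate 2 did not. Differences between libraries were measured as the median squared log difference over genes, divided by the value that read counting alone would give, over genes with at least 50 reads in every exposed library. This ratio was 4.18 to 5.33 between AMPA+2,4-D replicates 1 or 3 and the 2,4-D libraries, and 2.65 to 2.85 between AMPA+2,4-D replicate 2 and the 2,4-D libraries. Among the 2,4-D libraries themselves it was 2.24 to 3.07. Replicates 1 and 3 lay 2.63 apart, and each lay 3.96 or 4.12 from replicate 2 of their own group.

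A trend with the base composition of genes, and the levels of genes that lie opposite abundant genes, differed along the same split. Their part in the results was not tested except by the settings named here. Over 6476 genes with at least 5 FPKM, the difference of a library from the 2,4-D mean correlated with the GC content of the gene with a Spearman correlation of -0.63, -0.10 and -0.62 in AMPA+2,4-D replicates 1, 2 and 3, against 0.00, 0.20 and -0.23 in the 2,4-D replicates. This is a correlation across genes of the same libraries, which are not independent replicates. In replicates 1 and 3 the tenth of genes lowest in GC lay 0.13 and 0.12 (log2) above the 2,4-D mean and the tenth highest in GC 0.15 and 0.13 below it (medians of -0.15 and -0.13). MT-ND6, the mitochondrial gene read from the strand opposite to the other mitochondrial messenger RNAs, was at 163, 405 and 156 FPKM in AMPA+2,4-D libraries, against 419, 389 and 370 FPKM in 2,4-D libraries. The 84 genes whose exons overlap an abundant gene on the opposite strand summed to 172, 316 and 165 FPKM in AMPA+2,4-D libraries, against 263, 294 and 283 FPKM in 2,4-D libraries. ATP6V1C2, a proton pump subunit gene whose exons overlap those of PDIA6, was at 0.424, 8.13 and 0.382 FPKM in AMPA+2,4-D libraries, against 5.20, 5.57 and 5.56 FPKM in 2,4-D libraries. The labels do not say whether the library kit keeps the strand, and reads of such a gene and its partner cannot be told apart if it does not. Counts of called genes are therefore also given with replicate 2 alone, with replicates 1 and 3 alone, and after removal of a trend with GC content and gene length from each library, and so are the counts of several gene lists.

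**Figure D1:**
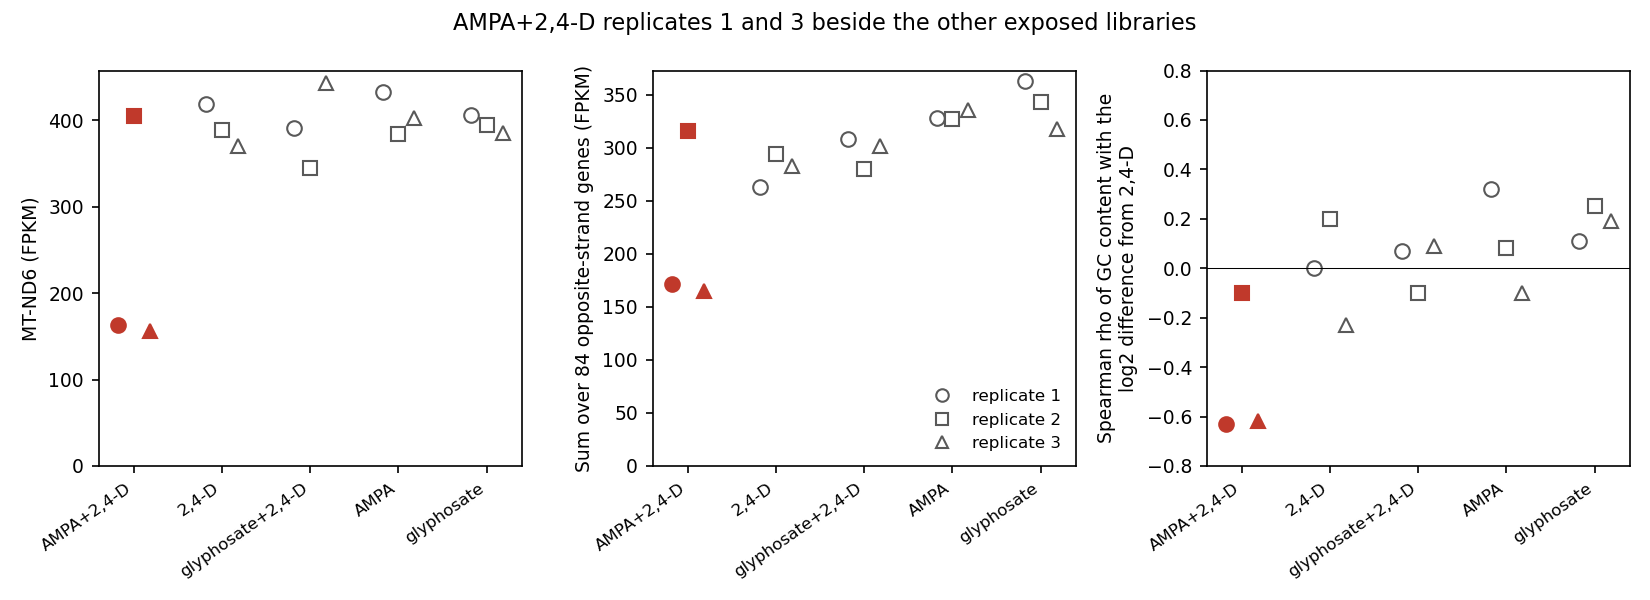
MT-ND6 in FPKM (left), the summed FPKM of 84 genes that overlap an abundant gene on the opposite strand (middle) and the Spearman correlation across 6476 genes of GC content with the log2 difference from the 2,4-D libraries (right), 1 point per library in the 5 exposed groups, with a different marker for each replicate number. AMPA+2,4-D replicates 1 and 3 lie at 163 and 156 FPKM for MT-ND6, below all 13 other exposed libraries, and replicate 2 lies among them.

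No gene passed the test of AMPA+2,4-D against 2,4-D. With limma on log2(FPKM + 1) over the 15 exposed libraries, 0 of 12045 genes (0%) had a Benjamini-Hochberg adjusted p under 0.05, and the smallest adjusted p was 0.0772. At an unadjusted p under 0.05 there were 1959 genes (16.3%), 974 higher (8.09%) and 985 lower (8.18%). The 3 AMPA+2,4-D libraries lay above the 3 2,4-D libraries in 1182 genes (9.81%) and below them in 1001 genes (8.31%), and these shares are the background for the counts in gene lists below. The 95% interval of a gene's log2 difference reached a median of 0.148 to either side, and 272 genes had a difference beyond 0.5 in either direction. A test on the recovered reads, limma-voom, called 235 genes, 94 higher (0.78%) and 141 lower (1.17%).

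The number of calls was higher without AMPA+2,4-D replicate 2. Limma then called 644 genes, 2% of all genes as higher and 3.35% (403 genes) as lower, and with replicate 2 as the sole AMPA+2,4-D library it called 0. The lone library is assumed there to vary like those of the other groups, and the median half-width of the 95% interval was 0.206, against 0.148 with all 3, so those 0 calls do not show that replicate 2 is without differences. Without replicate 1 or without replicate 3 it called 0 as well. In 313 of the 644 genes replicate 2 lay within or past the range of the 2,4-D libraries, and 34 of the 644 were among the 84 opposite-strand genes. After removal of the GC and length trend limma called 0 genes and limma-voom 42, 16 higher and 26 lower.

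The genes with the smallest p were small, steady differences. The 12 protein-coding genes each way with the smallest p, none of them called, had AMPA+2,4-D libraries that did not overlap the 2,4-D libraries, and limma adjusted p-values of 0.0772 to 0.0966. Among the higher 12, MPHOSPH10 (ENSG00000124383, GRCh38 chromosome 2, 71130314 to 71150101), which encodes a protein of the U3 particle that processes ribosomal RNA, was at 21, 18.8 and 18.8 FPKM in AMPA+2,4-D libraries, against 15.1, 15.6 and 15.1 FPKM in 2,4-D libraries. All 3 AMPA+2,4-D libraries lay well above the highest 2,4-D library, with a log2 difference of 0.33 ± 0.05 (SE) and an adjusted p of 0.0772 by limma and 0.00283 by limma-voom. PAK1IP1, another ribosome assembly gene, differed by 0.22 ± 0.04, and ABCE1, which recycles ribosomes, by 0.17 ± 0.03. SLC5A3, the sodium-coupled importer of the osmolyte myo-inositol, had the largest difference of the higher 12, at 0.41 ± 0.08. Its levels were 5.99, 5.56 and 5.64 FPKM in AMPA+2,4-D libraries, against 4.58, 3.82 and 3.84 FPKM in 2,4-D libraries, and its adjusted p by limma-voom was 0.00283. SLC5A3 overlaps MRPS6 on the same strand, so counting could split reads between them. 2 others act in the endoplasmic reticulum: DNAJB11, a co-chaperone of BiP, and OSTC, a subunit of the enzyme that attaches sugar chains to asparagine, at 139, 117 and 129 FPKM in AMPA+2,4-D libraries, against 105, 104 and 110 FPKM in 2,4-D libraries. The rest were ZFX (0.30 ± 0.05), an X-linked zinc finger transcription factor, the ubiquitin ligase gene MARCH7 (0.22 ± 0.04), the demethylase gene ALKBH1 (0.29 ± 0.06), the diphthamide synthesis gene DPH3 (0.24 ± 0.05), the membrane protein gene MMD (0.19 ± 0.04) and PPP4R3A (0.16 ± 0.03), a subunit of protein phosphatase 4.

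On the lower side, CYB5R3 (ENSG00000100243, chromosome 22, 42617840 to 42649568), the reductase that passes electrons from NADH to cytochrome b5, was at 31.7, 32.5 and 31.5 FPKM in AMPA+2,4-D libraries, against 37.4, 37.2 and 38.9 FPKM in 2,4-D libraries. The groups were separate by more than the spread within either, with a log2 difference of -0.24 ± 0.04 (SE) and an adjusted p of 0.0772 by limma and 0.00705 by limma-voom. PLTP, the plasma phospholipid transfer protein that remodels high-density lipoprotein, was at 12.1, 11.7 and 11.2 FPKM in AMPA+2,4-D libraries, against 14.9, 15.7 and 14.0 FPKM in 2,4-D libraries (-0.33 ± 0.05). MYBL2, a transcription factor that drives genes of the S and G2 phases, was at 9.56, 8.99 and 9.38 FPKM in AMPA+2,4-D libraries, against 13.3, 11.2 and 11.3 FPKM in 2,4-D libraries. Its difference was -0.32 ± 0.07, and it was as large in replicate 2 alone (-0.37) as in replicates 1 and 3 (-0.30). The same held for the tetraspanin gene TSPAN33 (-0.41 ± 0.08, with -0.43 in replicate 2 alone) and for NDUFA4L2 (-0.20 ± 0.04), a mitochondrial protein gene turned on by hypoxia. HDGFL2, a chromatin reader gene, depended more on replicates 1 and 3: it was at 6.71, 8.36 and 6.35 FPKM in AMPA+2,4-D libraries, against 9.24, 9.41 and 9.57 FPKM in 2,4-D libraries. The others were CUL7 (-0.23 ± 0.04), the scaffold of a ubiquitin ligase, B4GALNT4 (-0.33 ± 0.06), which adds N-acetylgalactosamine to glycans, ARHGAP45 (-0.25 ± 0.04), a GTPase-activating protein gene, NFKB2 (-0.21 ± 0.04), the p100 subunit of NF-kB, PPP1R15A (-0.21 ± 0.04), which directs a phosphatase to eIF2 alpha, and ETFB (-0.32 ± 0.06), a subunit of the electron transfer flavoprotein.

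The higher and the lower genes differed in base composition. GC content was 38.3% (SLC5A3) to 46.5% (ALKBH1) in the higher 12, and 53.5% (TSPAN33) to 66.3% (B4GALNT4) in the lower 12, against a median of 49.7% over all genes tested. The trend with GC was strongest in AMPA+2,4-D replicates 1 and 3. After removal of the GC and length trend the libraries of all 24 genes still did not overlap, with smaller differences, such as 0.26 for MPHOSPH10 and -0.17 for CYB5R3. Their adjusted p-values by limma were then 0.23 (MPHOSPH10) to 0.37 (NDUFA4L2). The genes were chosen for small p in these same libraries, so this separation is not independent support. Since genes were chosen with replicate 2 among the libraries, its own direction in them is fixed by the choice, and its differences are given as a description, from 0.10 for PPP4R3A to 0.37 for SLC5A3 among the higher and from -0.15 for HDGFL2 to -0.43 for TSPAN33 among the lower.

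**Figure D2:**
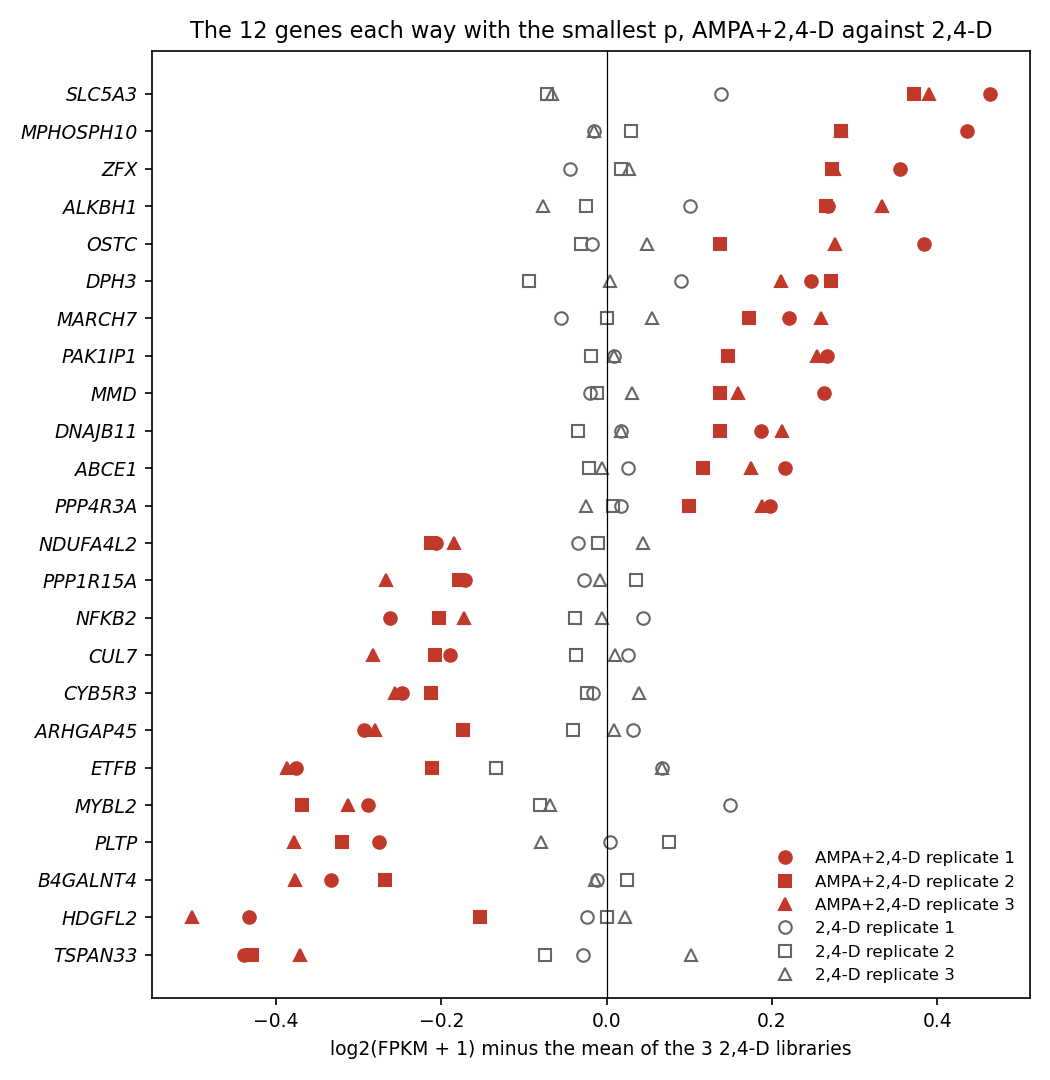
Log2(FPKM + 1) of each AMPA+2,4-D library (filled) and each 2,4-D library (open) minus the mean of the 3 2,4-D libraries, for the 12 protein-coding genes each way with the smallest p, with a different marker for each replicate number. The AMPA+2,4-D points lie to 1 side of all 2,4-D points in each of the 24 genes, and no gene passed the adjusted threshold (smallest adjusted p 0.0772 by limma).

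Of the 39 gene lists, the unfolded protein response had the largest share of genes with all AMPA+2,4-D libraries higher. Of 36 genes on the list 35 were tested, and in 15 (42.9%) all 3 AMPA+2,4-D libraries lay above all 3 2,4-D libraries, against 9.81% of all genes. In 1 gene, the sensor gene ERN1, they lay below (11.7, 12 and 11.9 FPKM in AMPA+2,4-D libraries, against 12.2, 12.3 and 12.4 FPKM in 2,4-D libraries). No member was called by limma, and limma-voom called 3, all higher (HSP90B1, DNAJB11 and CANX). The differences were small: the median over the list was 0.06 on the log2 scale, against 0.00 over all genes tested, with a range of -0.05 to 0.20. The list was near the middle of all genes in GC content (median 48.6%, against 49.7%), and after removal of the GC and length trend 11 members (31.4%) lay above and 0 below, against 7.9% and 6.97% of all genes. Replicate 2 alone lay above the 3 2,4-D libraries in 20 members (57.1%, against 25% of all genes), and replicates 1 and 3 both lay above in 15 (42.9%, against 21.7%).

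HSP90B1, the endoplasmic reticulum member of the HSP90 chaperones, was at 1600, 1420 and 1500 FPKM in AMPA+2,4-D libraries, against 1320, 1310 and 1310 FPKM in 2,4-D libraries. All AMPA+2,4-D libraries were higher, by 0.20 ± 0.04 (log2, SE), with an adjusted p of 0.0966 by limma and 0.0114 by limma-voom. DNAJB11 was at 49.6, 47.9 and 50.5 FPKM in AMPA+2,4-D libraries, against 44.0, 42.4 and 44.0 FPKM in 2,4-D libraries (0.18 ± 0.03). CANX, the lectin chaperone calnexin that holds newly made glycoproteins, was at 362, 342 and 355 FPKM in AMPA+2,4-D libraries, against 318, 311 and 321 FPKM in 2,4-D libraries (0.16 ± 0.03, adjusted p of 0.0966 by limma). DNAJC10, a reductase co-chaperone, differed by 0.13 ± 0.03. XBP1, the transcription factor made active through splicing by IRE1, was at 62.3, 57.7 and 56.7 FPKM in AMPA+2,4-D libraries, against 54.7, 54.1 and 54.1 FPKM in 2,4-D libraries (0.12 ± 0.05, adjusted p of 0.274 by limma). HSPA5, the chaperone BiP that holds the sensors inactive, differed least of these, at 1440, 1390 and 1380 FPKM in AMPA+2,4-D libraries, against 1330, 1360 and 1290 FPKM in 2,4-D libraries (0.08 ± 0.04, adjusted p of 0.324 by limma). All of these are messenger RNA totals per gene, and the spliced form of XBP1 is not told apart in them. In the 4 members of smallest p, AMPA alone differed from unexposed cells by -0.23 (HSP90B1), -0.19 (DNAJB11), -0.41 (DNAJC10) and -0.01 (CANX, all log2). None of them was higher with AMPA alone. DNAJB11 averaged 49.3 FPKM in AMPA+2,4-D, 43.5 FPKM in 2,4-D, 43.2 FPKM in AMPA and 49.4 FPKM in unexposed libraries. A batch shared by the exposed libraries cannot be told apart from exposure in these values.

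Some promoters of this list carry the element through which ATF6 and XBP1 act with NF-Y, the endoplasmic reticulum stress element ERSE. Its letters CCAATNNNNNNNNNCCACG were searched for on both strands in RefSeq promoters (GRCh38.p14, 250 bases before to 50 after the start of a transcript). It was found in 8 of the 32 tested members with a promoter in that set, and in 6 of the 13 whose libraries all lay higher. Of all 27305 genes with a RefSeq promoter, 0.0916% had it. The list was drawn up from known targets of the response, so the share in the list is a property of the choice, and a match of letters is not a measured binding site. The promoters of HSP90B1 (chr12:103930160-103930459, plus strand), CANX (chr5:179698679-179698978, plus strand), XBP1 (chr22:28800520-28800819, minus strand) and HSPA5 (chr9:125241294-125241593, minus strand) are shown as 4 of the 6 genes that carry the element and whose libraries all lay higher. The other 2, PDIA6 (0.11) and ERO1B (0.13), are not shown. They are written 5′ to 3′ on the strand of the gene, with the element in capitals on either strand.
HSP90B1: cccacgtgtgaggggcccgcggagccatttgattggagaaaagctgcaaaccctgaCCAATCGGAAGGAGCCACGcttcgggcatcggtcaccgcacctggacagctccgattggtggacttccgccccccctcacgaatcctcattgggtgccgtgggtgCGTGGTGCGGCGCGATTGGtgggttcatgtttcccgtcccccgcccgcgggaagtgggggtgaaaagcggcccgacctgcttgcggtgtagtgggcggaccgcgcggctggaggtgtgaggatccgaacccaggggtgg
CANX: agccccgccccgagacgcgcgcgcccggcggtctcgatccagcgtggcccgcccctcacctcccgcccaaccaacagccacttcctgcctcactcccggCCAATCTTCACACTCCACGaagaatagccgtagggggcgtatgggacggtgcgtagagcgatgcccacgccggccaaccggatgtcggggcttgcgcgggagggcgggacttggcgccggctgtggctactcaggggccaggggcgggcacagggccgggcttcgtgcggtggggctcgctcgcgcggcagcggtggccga
XBP1: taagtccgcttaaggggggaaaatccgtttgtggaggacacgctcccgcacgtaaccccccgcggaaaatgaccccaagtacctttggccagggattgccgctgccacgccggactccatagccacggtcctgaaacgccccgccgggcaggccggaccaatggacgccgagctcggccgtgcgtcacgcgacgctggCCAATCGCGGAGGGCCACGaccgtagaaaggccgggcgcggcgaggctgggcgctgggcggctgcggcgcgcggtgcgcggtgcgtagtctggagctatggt
HSPA5: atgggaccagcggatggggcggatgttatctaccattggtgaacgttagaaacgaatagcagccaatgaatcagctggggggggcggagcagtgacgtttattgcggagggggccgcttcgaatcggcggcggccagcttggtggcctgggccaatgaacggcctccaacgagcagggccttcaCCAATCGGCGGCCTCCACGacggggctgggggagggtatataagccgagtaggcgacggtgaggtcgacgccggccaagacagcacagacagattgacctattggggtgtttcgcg
HSP90B1 holds 2 copies, 1 on each strand, and the other 3 promoters hold 1 each, on the strand of the gene. The log2 differences of all 6 genes were 0.20 (HSP90B1), 0.16 (CANX), 0.13 (ERO1B), 0.12 (XBP1), 0.11 (PDIA6) and 0.08 (HSPA5). These 6 were chosen as higher, so their direction is fixed by the choice. CALR (0.02) and CRELD2 (-0.03) also carry the element, and their libraries overlapped between the groups. DNAJB11 (0.18) and DNAJC10 (0.13) lay higher without a match. A link of the element with the differences was not tested.

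Among NRF2 targets the aldo-keto reductases and thioredoxin reductase were higher in all AMPA+2,4-D libraries. In 10 of 36 tested members (27.8%, against 9.81%) all AMPA+2,4-D libraries lay above all 2,4-D libraries, and in 4 (11.1%, against 8.31%) below. Limma called 0 members and limma-voom 5, all higher (TXNRD1, AKR1C1, AKR1C2, AKR1C3 and UGDH). AKR1C3, which reduces ketosteroids and prostaglandins, was at 69.6, 73.3 and 72.0 FPKM in AMPA+2,4-D libraries, against 62.9, 61.5 and 58.9 FPKM in 2,4-D libraries. Its difference was 0.23 ± 0.05 (log2, SE), and replicate 2 was the highest library. AKR1C2 was at 23.9, 24.2 and 21.8 FPKM in AMPA+2,4-D libraries, against 17.4, 19.7 and 17.4 FPKM in 2,4-D libraries (0.35 ± 0.09, adjusted p of 0.108 by limma and 0.015 by limma-voom). AKR1C1, the nearest relative of AKR1C2, was at 170, 156 and 138 FPKM in AMPA+2,4-D libraries, against 130, 113 and 112 FPKM in 2,4-D libraries (0.38 ± 0.11). These 3 genes lie side by side on chromosome 10 and are so alike in sequence that reads could be split between them. TXNRD1, thioredoxin reductase, was at 70.1, 68.2 and 69.5 FPKM in AMPA+2,4-D libraries, against 62.5, 62.2 and 62.5 FPKM in 2,4-D libraries (0.15 ± 0.03, adjusted p of 0.0966 by limma). UGDH, which makes the sugar donor of glucuronidation, differed by 0.19 ± 0.05. NFE2L2, the gene of NRF2 itself, was at 48.0, 42.7 and 43.9 FPKM in AMPA+2,4-D libraries, against 39.6, 42.0 and 39.5 FPKM in 2,4-D libraries (0.15 ± 0.05).

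In the NRF2 list, replicate 2 lay on the higher side as the others did. Replicate 2 alone lay above all 2,4-D libraries in 16 members (44.4%, against 25%) and replicates 1 and 3 in 13 (36.1%, against 21.7%). After removal of the GC and length trend 11 members (30.6%, against 7.9% of all genes) lay above and 0 below. The list's median was 0.03 before and 0.06 after that removal. HMOX1, heme oxygenase and a classic target of NRF2, overlapped between groups at 13.9, 14.3 and 14.7 FPKM in AMPA+2,4-D libraries and 13, 15.5 and 13.5 FPKM in 2,4-D libraries. The 4 lower members were TALDO1, TKT, OSGIN1 and ABCC1.

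Genes of WNT signalling and of amino acid uptake had small lists with more members above than below. Of 17 tested WNT antagonists and beta-catenin targets 4 lay above (23.5%, against 9.81% of all genes) and 1 below (KREMEN1, 5.88%, against 8.31%). The 4 were DKK1, AXIN2, LGR5 and BMP4. The list median was 0.09, and after removal of the trend 6 lay above (35.3%, against 7.9%) and 0 below. LGR5, a receptor that strengthens WNT signals, was at 10.5, 10.3 and 10.1 FPKM in AMPA+2,4-D libraries, against 8.66, 9.16 and 7.95 FPKM in 2,4-D libraries (0.24 ± 0.07, adjusted p of 0.127 by limma and 0.0419 by limma-voom). AXIN2, a feedback inhibitor that beta-catenin turns on, was at 8.47, 7.93 and 7.78 FPKM in AMPA+2,4-D libraries, against 7.48, 7.37 and 6.37 FPKM in 2,4-D libraries. Neither gene overlapped between the groups. Of 23 amino acid transporters 6 lay above (26.1%, against 9.81% of all genes) and 0 below. The list was centred near all genes, with a median of 0.02, and of 0 without replicate 2. SLC38A2, the sodium-coupled transporter of small neutral amino acids, was at 516, 491 and 515 FPKM in AMPA+2,4-D libraries, against 459, 446 and 463 FPKM in 2,4-D libraries (0.15 ± 0.04, adjusted p of 0.119 by limma). SLC38A7, a lysosomal transporter of glutamine, differed by 0.12 ± 0.05.

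Splicing factors, heat shock factor 1 targets and mitochondrially encoded genes were lists in which replicates 1 and 3 lay above the 2,4-D libraries in more members than replicate 2 did, and limma called 0 members of each. Of 46 splicing factors 11 lay above (23.9%) and 1 below (2.17%, CLK3). Replicates 1 and 3 lay above the 2,4-D libraries in 25 of them (54.3%, against 21.7% of all genes) and replicate 2 in 13 (28.3%, against 25%). The list is low in GC content (median 44.3%), and after removal of the trend 5 lay above (10.9%, against 7.9% of all genes) and 1 below. LUC7L3, a protein of the U1 particle, was at 29.9, 27.1 and 28.2 FPKM in AMPA+2,4-D libraries, against 25.3, 25.1 and 25.7 FPKM in 2,4-D libraries (0.16 ± 0.04). Of 27 heat shock factor 1 targets 6 lay above (22.2%) and 2 below (HSPB1 and SERPINH1), and 3 (11.1%, against 7.9%) and 0 after removal of the trend. Replicates 1 and 3 lay above in 14 (51.9%) and replicate 2 in 8 (29.6%). HSPA4, a nucleotide exchange factor of HSP70, was at 46.4, 41.6 and 44.3 FPKM in AMPA+2,4-D libraries, against 40, 37.8 and 38.2 FPKM in 2,4-D libraries (0.18 ± 0.04, adjusted p of 0.0998 by limma). HSPA6, the inducible HSP70 gene, overlapped between groups at 9.62, 12.2 and 11.4 FPKM in AMPA+2,4-D libraries and 7.44, 11.7 and 9.31 FPKM in 2,4-D libraries.

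Of the 15 mitochondrially encoded genes 4 lay above (26.7%; MT-CO2, MT-CO3, MT-ATP6 and MT-ATP8) and 0 below, with a list median of 0.17, 0.00 and 0.15 in AMPA+2,4-D replicates 1, 2 and 3. Replicates 1 and 3 lay above in 11 (73.3%, against 21.7% of all genes) and replicate 2 in 4 (26.7%, against 25%). After removal of the trend 3 lay above (20%, against 7.9%) and 0 below. MT-ATP8 averaged 410 ± 91.2 FPKM in AMPA+2,4-D libraries, against 256 ± 20.6 FPKM in 2,4-D libraries (SD, n = 3 each), with replicate 2 at 309 FPKM the lowest of the AMPA+2,4-D libraries (log2 difference 0.65 ± 0.17, adjusted p of 0.112 by limma and 0.01 by limma-voom). The gene is short and overlaps MT-ATP6, so reads could be split between the 2. MT-ATP6, which like MT-ATP8 encodes a subunit of ATP synthase, was at 3490, 3500 and 3800 FPKM in AMPA+2,4-D libraries, against 3010, 3250 and 3250 FPKM in 2,4-D libraries. Mitochondrially encoded genes took 24.2%, 21.9% and 24% of all FPKM in AMPA+2,4-D libraries, against 21.5%, 21.7% and 22.5% in 2,4-D libraries.

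**Figure D3:**
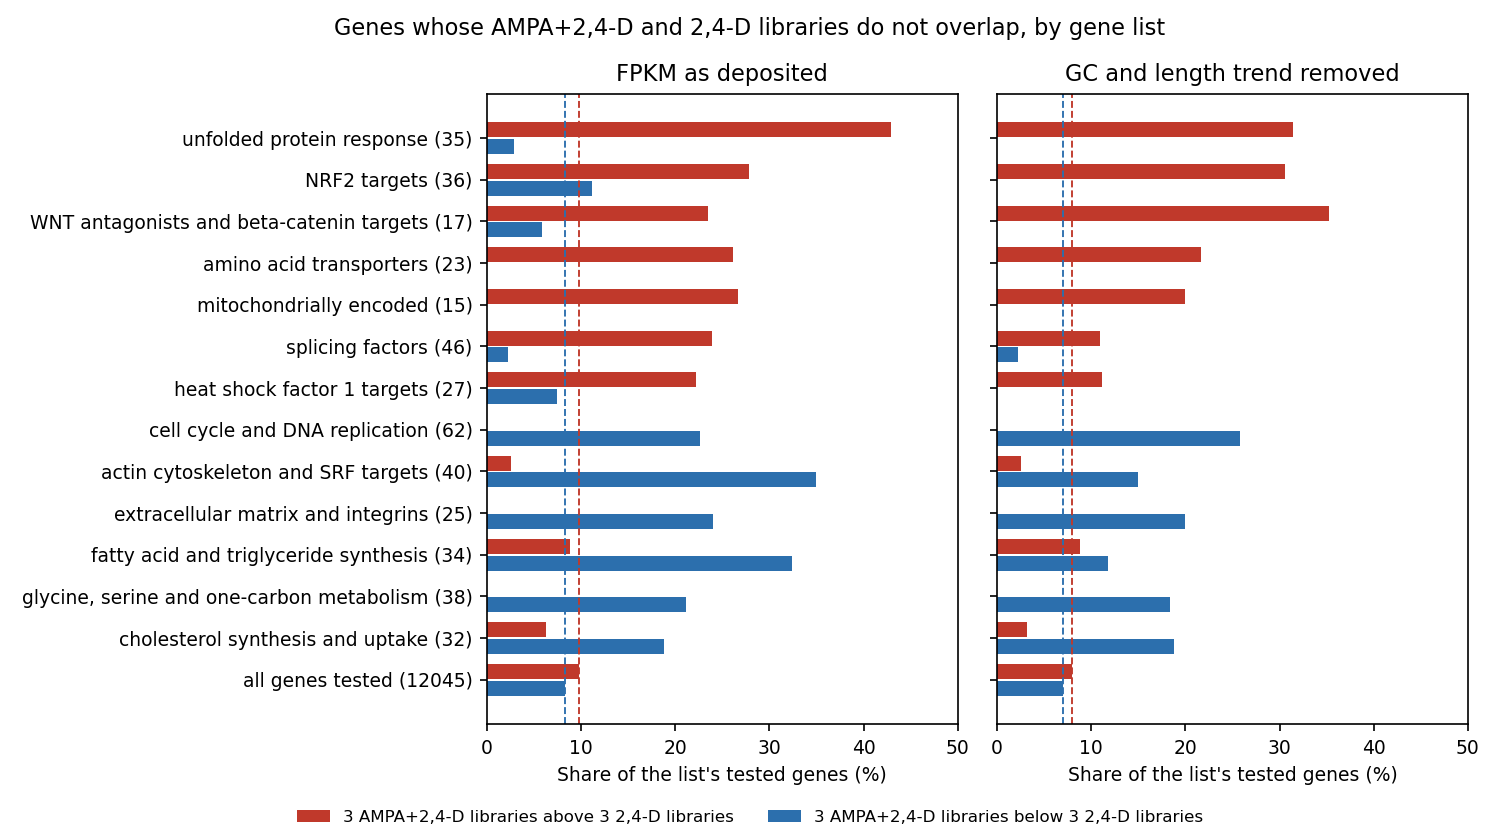
Share of each list's tested genes whose 3 AMPA+2,4-D libraries all lie above (red) or all lie below (blue) the 3 2,4-D libraries, for 13 gene lists and all genes tested, from FPKM as deposited (left) and after removal of the GC and length trend (right), with the number tested in brackets and dashed lines at the shares over all genes (9.81% and 8.31% on the left). The unfolded protein response has 42.9% above on the left and 31.4% on the right, while the actin list goes from 35% below on the left to 15% on the right.

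Cell cycle genes held a list with members below and none above. Of 62 tested genes of the cell cycle and DNA replication, all AMPA+2,4-D libraries lay below all 2,4-D libraries in 14 (22.6%, against 8.31% of all genes) and above in 0. The median was -0.08, with library medians of -0.04, -0.09 and -0.12 in AMPA+2,4-D replicates 1, 2 and 3, against 0.04, -0.04 and -0.02 in the 2,4-D replicates, so that replicate 1 was level with the lowest 2,4-D library. Replicate 2 alone lay below in 35 members (56.5%, against 27.1%) and replicates 1 and 3 in 19 (30.6%, against 18.3%). The list's median GC content was 47.7%, and after removal of the trend 16 members lay below (25.8%, against 6.97%) and 0 above. Limma called 0 members and limma-voom MYBL2. MCM2, a subunit of the replicative helicase, was at 7.79, 7.47 and 7.59 FPKM in AMPA+2,4-D libraries, against 9.57, 8.20 and 9.18 FPKM in 2,4-D libraries (-0.21 ± 0.06, adjusted p of 0.157 by limma). Its groups overlapped after removal of the trend (-0.16). GINS2, which belongs to the same helicase complex, was at 4.50, 4.07 and 4.03 FPKM in AMPA+2,4-D libraries, against 4.97, 4.60 and 4.75 FPKM in 2,4-D libraries. MKI67, the proliferation marker Ki-67, was at 7.59, 7.54 and 7.59 FPKM in AMPA+2,4-D libraries, against 9.38, 8.06 and 7.68 FPKM in 2,4-D libraries (-0.12 ± 0.07, adjusted p of 0.393 by limma). In MKI67 the groups were separate by a narrow margin, set by the lowest 2,4-D library. In such bulk libraries fewer dividing cells and less RNA per dividing cell cannot be told apart. CDKN1A, the p21 inhibitor of the cell cycle, overlapped between groups, at 65.6, 63.4 and 70.8 FPKM in AMPA+2,4-D libraries and 68.4, 70.6 and 70.7 FPKM in 2,4-D libraries.

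Actin cytoskeleton genes and targets of SRF, the factor that actin controls, lay below in 14 of 40 tested members (35%, against 8.31%) and above in 1, LPP (0.17 ± 0.05), an adhesion protein gene. The median was -0.11, -0.08 and -0.08 in AMPA+2,4-D replicates 1, 2 and 3. Replicate 2 alone lay below in 23 members (57.5%, against 27.1%) and replicates 1 and 3 in 20 (50%, against 18.3%). The list is high in GC content (median 57.1%), and after removal of the trend 6 members lay below (15%, against 6.97%). TPM2, a tropomyosin, was at 6.34, 7.73 and 6.73 FPKM in AMPA+2,4-D libraries, against 8.45, 9.01 and 10.2 FPKM in 2,4-D libraries (-0.36 ± 0.09, adjusted p of 0.1 by limma and 0.0237 by limma-voom). MYH9, nonmuscle myosin, was at 63.0, 66.2 and 66.5 FPKM in AMPA+2,4-D libraries, against 77.0, 69.4 and 72.6 FPKM in 2,4-D libraries (-0.16 ± 0.04). Its groups overlapped after removal of the trend (-0.11). ACTB, beta-actin, was at 230, 229 and 231 FPKM in AMPA+2,4-D libraries, against 254, 247 and 247 FPKM in 2,4-D libraries (-0.12 ± 0.04), and its libraries overlapped after removal of the trend.

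Matrix, lipid and one-carbon lists held more members below than above. Of 25 extracellular matrix and integrin genes 6 lay below (24%, against 8.31% of all genes) and 0 above. After removal of the trend 5 lay below (20%, against 6.97% of all genes) and 0 above. COL18A1, whose collagen is cut to endostatin, was at 9.01, 11.1 and 9.92 FPKM in AMPA+2,4-D libraries, against 13.3, 11.9 and 12.4 FPKM in 2,4-D libraries (-0.30 ± 0.07, adjusted p of 0.0966 by limma and 0.0127 by limma-voom). HSPG2, the basement membrane proteoglycan perlecan, was at 12.1, 14.7 and 14.8 FPKM in AMPA+2,4-D libraries, against 16.9, 17.6 and 16.6 FPKM in 2,4-D libraries. Both genes are among the tenth of genes highest in GC, and in both the groups were separate after removal of the trend. Of 34 genes of fatty acid and triglyceride synthesis 11 lay below (32.4%) and 3 above (ELOVL2, GPAT3 and AGPAT5). After removal of the trend 4 lay below (11.8%, against 6.97% of all genes) and 3 above (8.82%, against 7.9%), nearer to the shares over all genes. AGPAT2, an acyltransferase of triglyceride synthesis, was at 14.4, 17.3 and 16.9 FPKM in AMPA+2,4-D libraries, against 19.3, 19 and 20.2 FPKM in 2,4-D libraries (-0.26 ± 0.06). Its groups overlapped after removal of the trend (-0.14). ELOVL2, which lengthens polyunsaturated fatty acids, went the other way, at 44.5, 37.8 and 40.8 FPKM in AMPA+2,4-D libraries, against 35.4, 36.1 and 35.1 FPKM in 2,4-D libraries (0.20 ± 0.05). Of 32 genes of cholesterol synthesis and uptake 6 lay below (18.8%) and 2 above (HMGCS1 and INSIG2). After removal of the trend 6 lay below (18.8%, against 6.97% of all genes) and 1 above (3.12%, against 7.9%). Replicate 2 lay below in 9 (28.1%, against 27.1% of all genes) and replicates 1 and 3 in 8 (25%, against 18.3%), so replicate 2 was near the share over all genes. DHCR7, which makes the last step to cholesterol, was at 8.96, 10.1 and 9.86 FPKM in AMPA+2,4-D libraries, against 12.7, 11.2 and 12.5 FPKM in 2,4-D libraries (-0.30 ± 0.07, adjusted p of 0.0984 by limma).

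Of 38 genes of glycine, serine and one-carbon metabolism 8 lay below (21.1%, against 8.31% of all genes) and 0 above, with a median of -0.02. After removal of the trend 7 lay below (18.4%, against 6.97%) and 0 above. SHMT1, the cytosolic enzyme that interconverts serine and glycine, was at 1.15, 0.948 and 1.11 FPKM in AMPA+2,4-D libraries, against 1.51, 1.64 and 1.39 FPKM in 2,4-D libraries (-0.28 ± 0.08, adjusted p of 0.14 by limma and 0.0447 by limma-voom). GRHPR, which reduces glyoxylate, was at 4.70, 4.66 and 4.80 FPKM in AMPA+2,4-D libraries, against 5.60, 5.34 and 5.58 FPKM in 2,4-D libraries (-0.19 ± 0.07). SLC6A9, a glycine transporter, did not differ beyond its spread, at 5.63, 5.46 and 4.63 FPKM in AMPA+2,4-D libraries and 5.17, 6.31 and 4.33 FPKM in 2,4-D libraries.

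**Figure D4:**
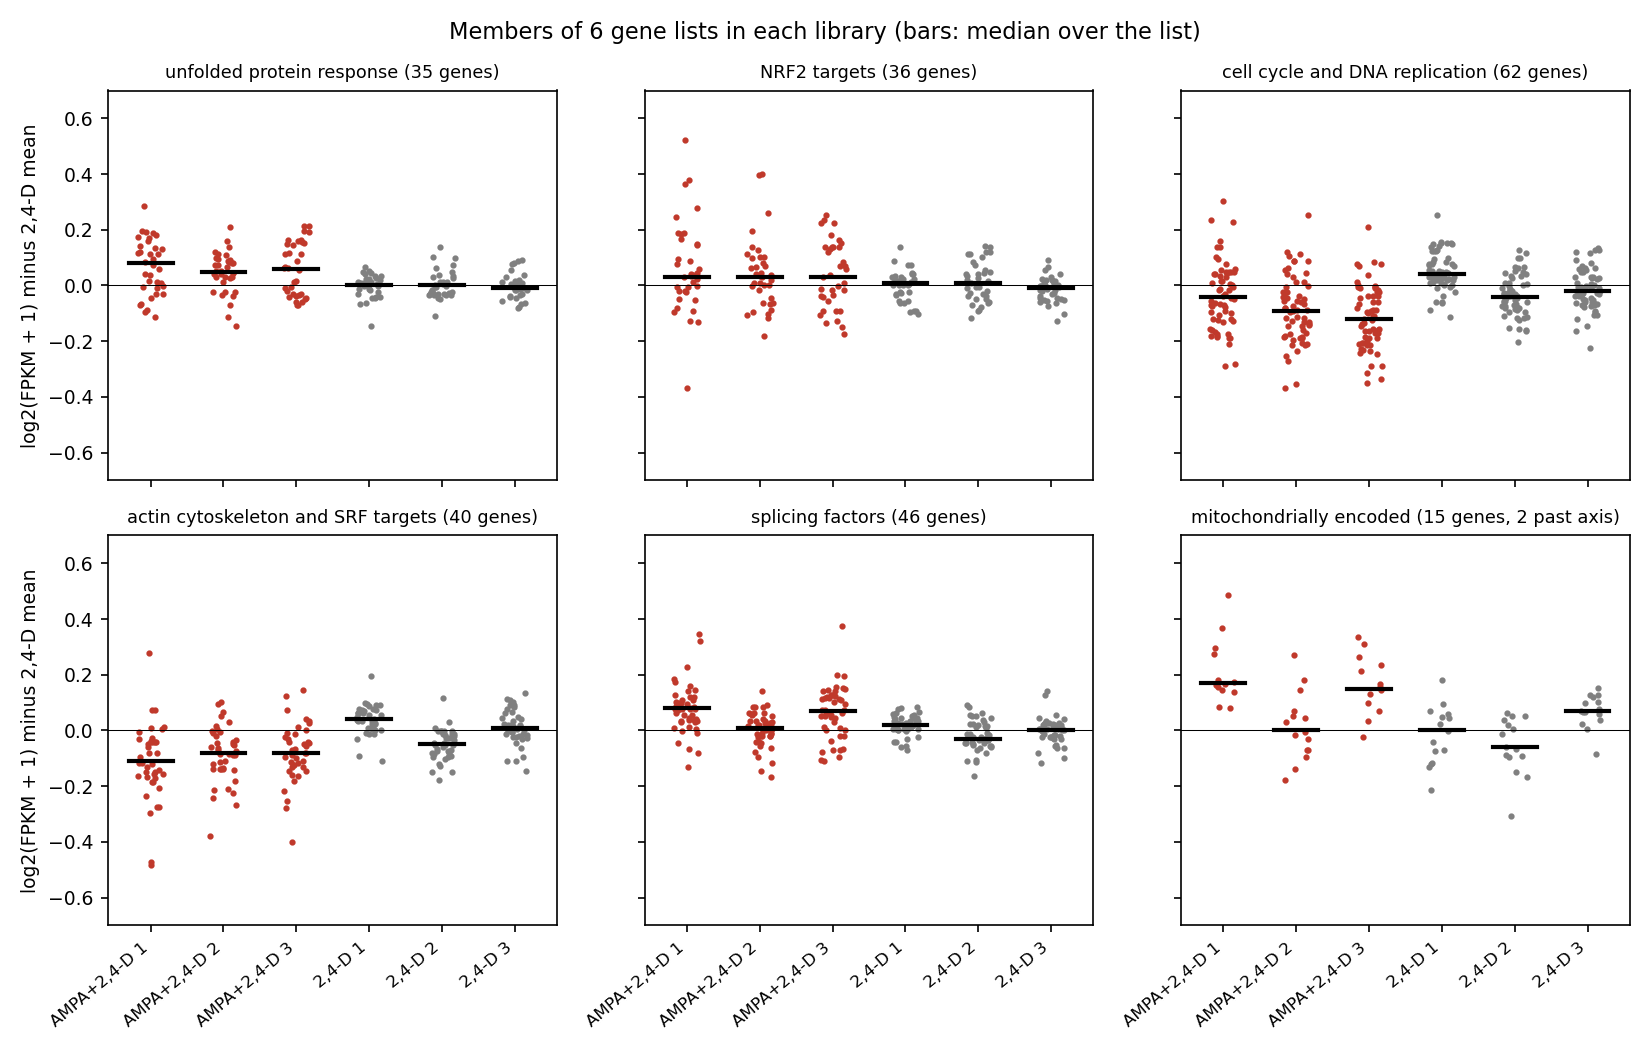
Log2(FPKM + 1) of every tested member of 6 gene lists in each AMPA+2,4-D library (red) and each 2,4-D library (grey), minus the member's mean over the 3 2,4-D libraries, with bars at the list median of each library. The unfolded protein response has medians of 0.08, 0.05 and 0.06 in AMPA+2,4-D replicates 1, 2 and 3, while the splicing factors have 0.08, 0.01 and 0.07 and the mitochondrially encoded genes 0.17, 0.00 and 0.15.

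Immediate early genes differed between the AMPA+2,4-D replicates. Of 33 tested 7 lay below (21.2%) and 4 above (12.1%; KLF10, ZFP36L1, CTGF and TRIB1). Replicate 2 lay above the 2,4-D libraries in 14 (42.4%, against 25% of all genes) and below in 8 (24.2%, against 27.1%). Replicates 1 and 3 lay above in 5 (15.2%, against 21.7%) and below in 13 (39.4%, against 18.3%). After removal of the trend 5 lay below (15.2%, against 6.97%) and 6 above (18.2%, against 7.9%). CYR61, whose product CCN1 is a secreted matrix signal, was at 29, 28.7 and 29.4 FPKM in AMPA+2,4-D libraries, against 35.4, 35.2 and 36.9 FPKM in 2,4-D libraries (-0.29 ± 0.07, adjusted p of 0.0966 by limma and 0.018 by limma-voom). The libraries of each group lay close together and far from the other group. GADD45B, a stress gene, was at 12.6, 13.7 and 11.6 FPKM in AMPA+2,4-D libraries, against 14.7, 15.5 and 16.8 FPKM in 2,4-D libraries (-0.29 ± 0.06). Among 14 genes of the insulin and IGF axis 3 lay below (IGF2, IGFBP2 and INSR) and 1 above (IRS1). After removal of the trend 2 lay below (14.3%, against 6.97% of all genes) and 1 above (7.14%, against 7.9%). Replicate 2 lay below in 5 (35.7%, against 27.1% of all genes) and replicates 1 and 3 in 4 (28.6%, against 18.3%). IGF2, the fetal growth factor, was at 19.7, 27.3 and 21.6 FPKM in AMPA+2,4-D libraries, against 31.8, 32.4 and 30.7 FPKM in 2,4-D libraries (-0.46 ± 0.09, adjusted p of 0.0966 by limma and 0.00283 by limma-voom). Replicate 2 lay closer to the 2,4-D libraries, with a difference of -0.21, against -0.59 for replicates 1 and 3. IGFBP3, which binds insulin-like growth factors, did not differ beyond its spread, at 16.2, 18.6 and 21.7 FPKM in AMPA+2,4-D libraries and 17.7, 16.4 and 22.5 FPKM in 2,4-D libraries (95% interval of the log2 difference -0.29 to 0.29).

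Genes of the secreted liver proteins and bile acids held a few of the larger differences. Of 47 tested secreted proteins 9 lay below (19.1%, against 8.31% of all genes) and 2 above. After removal of the trend 5 lay below (10.6%, against 6.97%) and 2 above (4.26%, against 7.9%). ORM1, an acute phase plasma protein, was at 108, 112 and 101 FPKM in AMPA+2,4-D libraries, against 149, 133 and 140 FPKM in 2,4-D libraries (-0.39 ± 0.09, adjusted p of 0.0966 by limma and 0.00991 by limma-voom). APOC3, which slows the clearance of triglyceride-rich lipoproteins, was at 109, 104 and 106 FPKM in AMPA+2,4-D libraries, against 126, 116 and 137 FPKM in 2,4-D libraries (-0.25 ± 0.06). Its groups overlapped after removal of the trend, with a difference of -0.11. Of 16 bile acid genes 3 lay above (BAAT, ABCC2 and KLB) and 0 below. After removal of the trend 3 lay above (18.8%, against 7.9% of all genes) and 0 below. Replicate 2 lay above in 3 (18.8%, against 25% of all genes) and replicates 1 and 3 in 4 (25%, against 21.7%), near the shares over all genes. BAAT, which joins bile acids to glycine or taurine, was at 4.81, 5.31 and 4.88 FPKM in AMPA+2,4-D libraries, against 3.85, 3.69 and 2.79 FPKM in 2,4-D libraries (0.44 ± 0.10, adjusted p of 0.0966 by limma and 0.0197 by limma-voom).

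The other 22 lists are given by how many tested genes had all AMPA+2,4-D libraries above or below all 2,4-D libraries, against 9.81% and 8.31% over all genes, with all 3 AMPA+2,4-D libraries. Of 37 genes of the ATF4 amino acid response, 2 lay above (SLC38A2 and CEBPG) and 4 below (ATF5, PHGDH, SESN2 and AARS). In fatty acid oxidation and PPAR alpha targets, 6 lay above and 4 below (ACADS, HADH, ECHS1 and ETFB) of 45. Of 23 genes of cytochrome P450 genes and their regulators, 4 lay above (CYP4F3, CYP20A1, AHR and TIPARP) and 3 below (CYP2W1, POR and CYB5R3). In conjugation enzymes, 5 lay above (UGT2A3, UGT2B7, UGT2B10, SULT1E1 and MGST2) and 1 below (SULT1A1) of 24. Of 13 genes of metallothioneins and metal handling, 3 lay above (SLC30A1, SLC39A14 and SLC40A1) and 1 below (MT1G). In p53 targets, 4 lay above (FAS, TP53INP1, RRM2B and CCNG1) and 4 below (SESN2, GADD45A, DDB2 and TNFRSF10B) of 29. Of 44 genes of glycolysis and the hypoxia response, 3 lay above (SLC16A1, EGLN1 and HIF1A) and 7 below. In gluconeogenesis and glycogen, 0 lay above and 2 below (PC and PGM1) of 19. Of 75 genes of nuclear oxidative phosphorylation, 2 lay above (NDUFS4 and COX7C) and 7 below. In cytosolic ribosomal proteins, 0 lay above and 2 below (RPSA and RPS2) of 78. Of 37 genes of translation factors, 3 lay above (EIF3A, EIF3J and EIF5B) and 0 below. In the proteasome, 5 lay above (PSMA3, PSMA4, PSMD1, PSMD11 and PSMD12) and 5 below (PSMB7, PSMC3, PSMC4, PSMD2 and PSME2) of 34. Of 48 genes of lysosome and autophagy, 2 lay above (GABARAPL2 and ATG9A) and 8 below. In hepatocyte transcription factors, 4 lay above (FOXA1, FOXA3, ONECUT2 and NR2F1) and 1 below (ATF5) of 26. Of 38 genes of amino acid catabolism and the urea cycle, 5 lay above and 4 below (CPS1, HPD, FAH and UROC1). In YAP and TEAD targets, 4 lay above (CTGF, AJUBA, YAP1 and WWTR1) and 3 below (CYR61, PTPN14 and GADD45A) of 22. Of 17 genes of NF-kB targets, 0 lay above and 2 below (NFKB2 and ICAM1). In interferon-stimulated genes, 1 lay above (USP18) and 1 below (OAS3) of 24. Of 15 genes of circadian clock genes, 0 lay above and 1 below (BHLHE40). In snoRNA host genes, 2 lay above (SNHG5 and SNHG20) and 1 below (SNHG21) of 22. Of 7 genes of nuclear retained RNAs, 1 lay above (OIP5-AS1) and 0 below. In histones, 1 lay above (H3F3B) and 0 below of 16. Limma called 0 members in each of these lists, and in all 22 the list median lay between -0.08 and 0.08 on the log2 scale. The replicates differed in some of them, named here after their values were seen. Replicate 2 lay below in 23 of the lysosome and autophagy genes (47.9%, against 27.1% of all genes) and replicates 1 and 3 in 11 (22.9%, against 18.3%). Replicates 1 and 3 lay above in 13 translation factors (35.1%, against 21.7%), 12 proteasome genes (35.3%) and 6 nuclear retained RNAs (85.7%), and replicate 2 in 7 (18.9%, against 25%), 6 (17.6%) and 2 (28.6%) of the same lists.

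Of genes often followed after exposure to foreign compounds, CYP1A1, CYP2B6 and CPT1A showed no difference beyond the spread between libraries. CYP1A1, the main target of the aryl hydrocarbon receptor, was at 4.41, 4.74 and 3.91 FPKM in AMPA+2,4-D libraries and 4.46, 4.61 and 3.62 FPKM in 2,4-D libraries, with a 95% interval of the log2 difference of -0.21 to 0.28. CYP2B6, which the receptors CAR and PXR turn on, was at 18.5, 20 and 18.5 FPKM in AMPA+2,4-D libraries and 18.7, 17.1 and 18.5 FPKM in 2,4-D libraries (-0.03 to 0.17). CPT1A, the gate of fatty acids into mitochondria and a target of PPAR alpha, was at 8.30, 8.72 and 8.75 FPKM in AMPA+2,4-D libraries and 8.5, 8.71 and 8.83 FPKM in 2,4-D libraries (-0.10 to 0.07). In all 3 genes the groups overlapped. DKK1, a secreted WNT antagonist, did not overlap between the groups and was not called, at 33.8, 35.5 and 37.6 FPKM in AMPA+2,4-D libraries, against 30.5, 29.7 and 33.2 FPKM in 2,4-D libraries (0.19 ± 0.11, adjusted p of 0.406 by limma).

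Set against the other mixture, AMPA+2,4-D differed in 510 genes by limma, 231 higher (1.92%) and 279 lower (2.32%). The balance turned with the scaling: after rescaling to TPM 173 genes were higher and 135 lower. AMPA was given at 34 µM and glyphosate at 5.6 µM, so the mixtures differ in concentration as well as in compound, and the 2 cannot be told apart. The AMPA+2,4-D libraries are those of the first comparison, and the count was 1279 without AMPA+2,4-D replicate 2, 91 without replicate 1, 58 without replicate 3 and 0 with replicate 2 as the sole AMPA+2,4-D library. The count was 161 after removal of the GC and length trend. Glyphosate+2,4-D against 2,4-D, in the same fit, gave 0 called genes, 900 at an unadjusted p under 0.05.

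Among genes called against glyphosate+2,4-D, the largest increases were in MT-ATP8 (0.74, adjusted p of 0.0319 by limma), SPTSSB (0.59), a subunit of the first enzyme of sphingolipid synthesis, and SLC5A3 (0.53, adjusted p of 0.00803 by limma). SLC5A3 averaged 5.73 ± 0.225 FPKM in AMPA+2,4-D libraries, 3.65 ± 0.249 FPKM in glyphosate+2,4-D libraries and 4.08 ± 0.431 FPKM in 2,4-D libraries (SD, n = 3 each). It was called in each setting run but that with replicate 2 as the sole AMPA+2,4-D library. The largest decreases were in TFF3 (-0.70), a secreted trefoil peptide, TOMM7 (-0.63), a subunit of the mitochondrial import pore, and the metallothionein gene MT1G (-0.61). TFF3 was low, with 22 to 50 reads in the AMPA+2,4-D and 2,4-D libraries. It was at 1.41, 1.24 and 2.37 FPKM in AMPA+2,4-D libraries and 2.35, 3.74 and 3.87 FPKM in glyphosate+2,4-D libraries, which overlapped. TOMM7 averaged 19.6 ± 6.80 FPKM in AMPA+2,4-D libraries and 29.9 ± 0.681 FPKM in glyphosate+2,4-D libraries (SD, n = 3 each), with a difference of -0.12 in replicate 2 alone. In the unfolded protein response list 8 of 35 members were higher by this test and 0 lower, against 1.92% and 2.32% of all genes: HSP90B1, DNAJB11, DNAJC3, DNAJC10, SEL1L, PDIA3, PDIA6 and CANX. Other lists held calls as well. Lower were 14 of 78 cytosolic ribosomal proteins (0 higher), 8 of 47 secreted proteins (1 higher), 6 of 44 glycolysis and hypoxia genes (1 higher) and 5 of 33 immediate early genes (0 higher). These list counts use all 3 AMPA+2,4-D libraries without removal of the trend. DNAJB11 differed by 0.23 (adjusted p of 0.00485 by limma) and HSP90B1 by 0.21 (adjusted p of 0.0195 by limma).

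Whether AMPA did the same in cells with and without 2,4-D was tested as an interaction, the difference of AMPA+2,4-D from 2,4-D minus the difference of AMPA from unexposed cells. Limma called 4732 of 12045 genes (39.3%), 2108 higher (17.5%) and 2624 lower (21.8%), and after rescaling to TPM 3336 higher and 1593 lower, a scaling under which the median difference over all genes was 0.11, against -0.02 as deposited. In the fit of all 21 libraries AMPA against unexposed cells gave 6690 called genes, and AMPA+2,4-D against 2,4-D gave 0 (1312 at an unadjusted p under 0.05). The 3 most negative genes were IGFBP3 (-2.92), DKK1 (-2.78) and AKAP12 (-2.64), a scaffold of protein kinase A. The unexposed libraries formed 2 sets that stood apart in these genes, replicates 1 to 3 and replicates 4 to 6, so that their mean and SD span both. IGFBP3 was at 1.17, 0.879 and 1.24 FPKM in unexposed replicates 1 to 3 and at 4.65, 3.65 and 4.21 FPKM in replicates 4 to 6, DKK1 at 2.40, 1.94 and 2.62 FPKM and at 7.72, 7.02 and 7.13 FPKM, and DKK4 at 13, 13.5 and 13.6 FPKM and at 6.37, 7.97 and 7.35 FPKM. With unexposed replicates 1 to 3 only, limma called 6021 genes and the interaction was -3.57 for IGFBP3, -3.44 for DKK1 and 2.26 for DKK4. With replicates 4 to 6 only it called 5037 genes, and the values were -2.26, -2.11 and 1.45 in the same order. IGFBP3 averaged 18.8 ± 2.77 FPKM in AMPA+2,4-D libraries and 18.9 ± 3.22 FPKM in 2,4-D libraries, and 23.9 ± 3.53 FPKM in AMPA libraries against 2.63 ± 1.72 FPKM in unexposed libraries (SD, n = 3 each, with 6 unexposed). AKAP12 averaged 150 ± 18 and 168 ± 25.4 FPKM in AMPA+2,4-D and 2,4-D libraries, and 194 ± 22.9 and 34.8 ± 9.14 FPKM in AMPA and unexposed libraries (SD). The 3 most positive genes were the glutathione transferases GSTA1 (1.95) and GSTA2 (1.94), which share near-identical sequence, and DKK4 (1.85), another WNT antagonist. DKK4 averaged 3.29 ± 1.39 FPKM in AMPA+2,4-D libraries and 2.60 ± 0.373 FPKM in 2,4-D libraries, and 2.50 ± 0.439 FPKM in AMPA libraries against 10.3 ± 3.41 FPKM in unexposed libraries (SD). The unexposed libraries did not overlap any of the 3 exposed groups in IGFBP3, DKK1, AKAP12, GSTA1 and DKK4, and in GSTA2 they overlapped AMPA+2,4-D (up to 7.30 FPKM, against 6.10 FPKM in the lowest unexposed library). Exposure and any batch shared by the exposed libraries cannot be told apart from the labels.

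**Figure D5:**
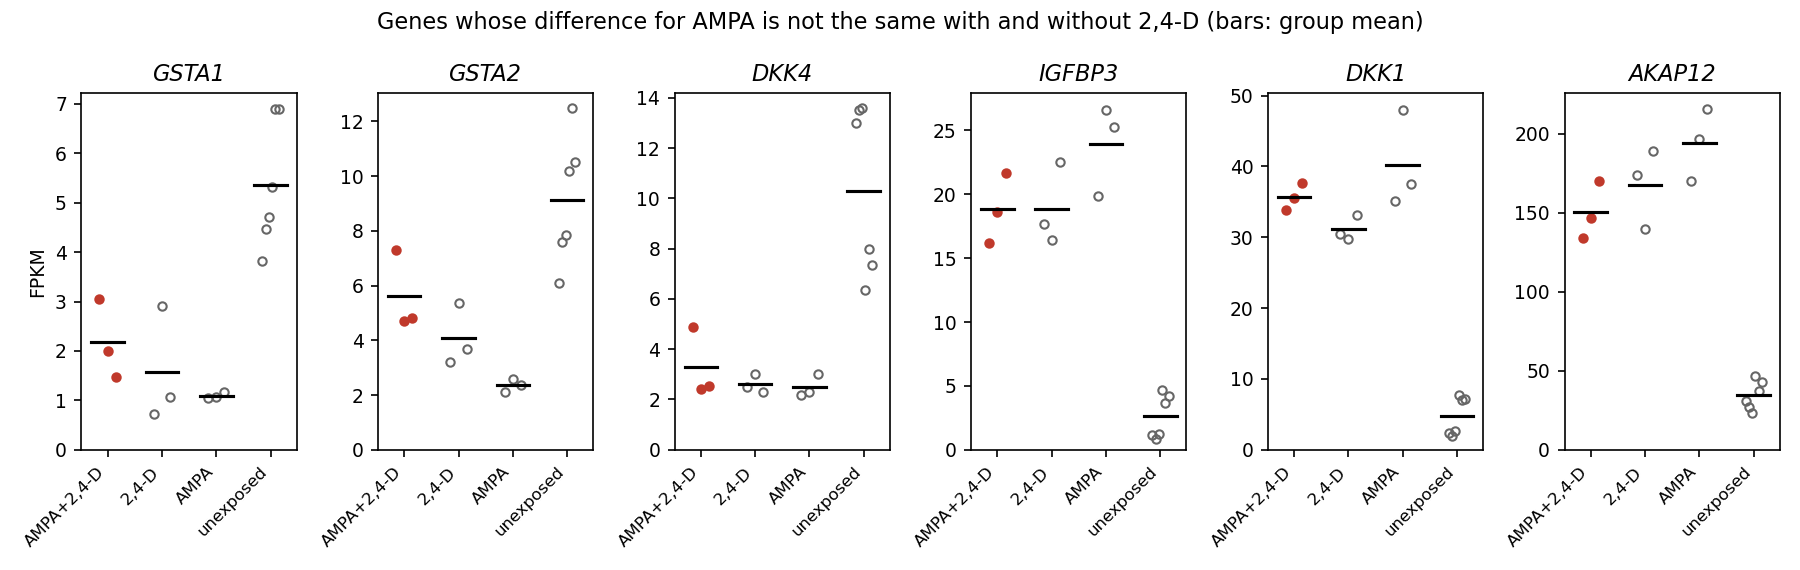
FPKM of 6 genes in each AMPA+2,4-D, 2,4-D, AMPA and unexposed library, with bars at the group mean, for the 3 genes with the most positive and the 3 with the most negative difference between what AMPA did with and without 2,4-D. IGFBP3 lies at 16.2 to 21.7 FPKM in AMPA+2,4-D libraries and 16.4 to 22.5 FPKM in 2,4-D libraries, and at 0.879 to 4.65 FPKM in the 6 unexposed libraries.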

How the data were processed

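RNA of the exposed and unexposed C3A cells was sequenced from SMARTer libraries, per the labels' protocols, which do not say whether strand was kept. Reads were aligned to GRCh38 with HISAT2 2.0.5 and counted with featureCounts 1.5.0-p3, per the submitters' processing notes, and the authors deposited FPKM per gene, with a separate file for each group. Genes absent from another group's table were set to 0. From FPKM and gene length, 100% of values in every library came out as whole reads (within 0.1 of a read). This recovered 15.2 to 24.35 M reads per library, and more reads give less counting error.

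Values were compared as log2(FPKM + 1) in limma 3.58.1 (R 4.3.3), with group means over the 15 exposed libraries (all 21 for the interaction), a mean-variance trend and Benjamini-Hochberg adjustment over 12045 genes, called at an adjusted p under 0.05. Differences on this scale understate those of low genes. An exact permutation test of 3 against 3 cannot go below 0.1. Alternatives were another pseudocount, other filters and scalings, limma-voom on recovered reads, other sets of libraries, library weights, a replicate block and leaving out each library. Removal of the GC and length trend, and the other settings named as added, were chosen after the data were seen.

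The named genes were the 12 protein-coding genes each way with the largest change among called genes, filled by smallest p where fewer were called, up to 4 of smallest p per gene list, 3 each way in the other comparisons, and 9 named always. Other genes were named after their values were seen. Some genes are not reported here. Members and all 39 gene lists were chosen with earlier results of these data known. Replicate numbers were checked for pairing and did not pair the samples. GC content and overlaps came from the GENCODE v29 models of the reference, and promoters from RefSeq (GRCh38.p14). Data were simulated for AMPA+2,4-D against 2,4-D, with 65 genes changed by each fold among 11810 tested. Limma recovered 52.3%, 81.5% and 90.8% of genes changed 1.25, 1.5 and 2-fold and limma-voom 64.6%, 86.2% and 90.8%, and each called 4 unchanged genes. The simulated AMPA+2,4-D libraries held neither the split of replicate 2 from replicates 1 and 3 nor the GC trend. These shares therefore do not give the recovery in the real libraries.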

Additional observations from a re-analysis of the deposited data

Results flagged for a closer look

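The difference that AMPA made with 2,4-D present was set against the difference it made alone, by a test of the interaction in limma over 21 libraries. It separated 4732 of 12045 genes. The genes with the largest such differences of log2 values were GSTA1 (1.95), GSTA2 (1.94) and DKK4 (1.85) on the positive side, and IGFBP3 (-2.92), DKK1 (-2.78) and AKAP12 (-2.64) on the negative side. Each rests on the 6 unexposed libraries, which formed 2 sets (6021 genes with replicates 1 to 3 only, 5037 with 4 to 6 only), and any batch shared by the exposed libraries cannot be told apart from exposure.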

How the results depend on the processing

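Of AMPA+2,4-D against 2,4-D, 0 genes were called by limma (1959 at an unadjusted p under 0.05), with 2 when no filter was set on low values, 1 at FPKM of 5 or more, 193 with library weights (arrayWeights), 235 by limma-voom, and 0 to 644 when a library was left out, the 644 without AMPA+2,4-D replicate 2. Chosen after the data were seen were limma-voom without that library (1020), limma-voom with the GC and length trend removed (42), and 3 settings with 0 called: the trend removed in limma, opposite-strand genes left out, and replicate 2 as the sole AMPA+2,4-D library (846 at an unadjusted p under 0.05). The other settings also gave 0. Replicate numbers did not pair the samples (correlations of same-numbered libraries of 0.05, 0.10 and 0.02, and -0.06 to 0.12 over 30 pairs), and a replicate block gave 0, 377 and 5913 calls in the 3 comparisons. In the interaction the block also takes out unexposed replicates 4 to 6, which share no number with exposed libraries, and unexposed replicates 1 to 3 without a block gave 6021.

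Against glyphosate+2,4-D the 510 calls became 240 with no filter, 308 after rescaling to TPM, 972 by limma-voom, 58 to 1279 when a library was left out, and, added later, 161 with the trend removed and 0 with replicate 2 as the sole AMPA+2,4-D library. The calls were 91, 1279 and 58 without AMPA+2,4-D replicates 1, 2 and 3, and 212, 117 and 92 without glyphosate+2,4-D replicates 1, 2 and 3. The interaction's 4732 calls became 3084 at FPKM of 5 or more, where fewer genes were tested, and 4033 to 4560 when a library was left out.

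Of 2003 values of 96 named genes under these settings 1975 had the same direction and 28 were reversed, at log2 differences of -0.11 to 0.13. MT-ND6 had 0.05 with replicate 2 as the sole AMPA+2,4-D library and CDKN1A 0.00 by limma-voom with the trend removed. CPT1A had 0.02 with the trend removed, by limma as by limma-voom, 0.01 with replicate 2 alone, and -0.03 to 0.01 when a library was left out. CYP1A1 had 0.00 with library weights, -0.02 by limma-voom without replicate 2, and -0.05 to 0.10 when a library was left out, and HMOX1 -0.02 to 0.10. IGFBP3 had 0.00 by limma-voom, 0.02 with library weights, 0.03 with the trend removed, 0.04 by limma-voom with the trend removed, 0.01 by limma-voom without replicate 2, and -0.10 to 0.13 when a library was left out. SLC6A9 had 0.00 after median-of-ratios scaling, by limma-voom and with library weights, -0.01 after rescaling to TPM, -0.03 by limma-voom without replicate 2, and -0.11 to 0.12 when a library was left out. The causes of these changes were not tested. With 3 libraries a group the median 95% interval of a gene reached 0.148 (log2) to either side, with narrower and wider intervals in single genes.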
